A study of Danio rerio with 12 samples.

Results

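Expression of 7 genes for transcription factors of the muscle lineage, myod1, myf5, myog, mef2ca, mef2d, six1b and pax7a, was followed in zebrafish embryos sired by starved or by fed males. The genes were picked by name, and all 7 were found, each on a single row, among the 13680 genes of the authors' table. Eggs of fed wild-type females were fertilised in vitro with sperm of starved or of fed males, and whole embryos of the AB strain were frozen 24 hours after fertilisation. Embryos of 6 libraries had starved fathers and those of 6 libraries had fed fathers; mothers were fed in both groups, and no allele or agent distinguished the groups. A library held 1 to 3 embryos, and its messenger RNA was read from the 3′ end by sequencing. The design text speaks of several fathers per group, but the labels tie no library to a father and give no length of starvation. Libraries of a group may therefore share a father and may not be independent. The spread that the p-values rest on may then not be that between fathers.

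In vertebrate embryos, Pax proteins act early in the somite and, as upstream factors, help to switch on the myogenic regulatory factors, a family of basic helix-loop-helix proteins. Within this family Myod1 and Myf5 commit cells to the muscle fate, and Myog acts later, when myoblasts leave the cell cycle and fuse. Mef2 proteins bind DNA through a MADS domain and work with these factors on genes of the contractile apparatus, such as the titin gene ttn.2. In zebrafish Myod1 and Myf5 act redundantly, and Mef2ca and Mef2d are required for the assembly of thick filaments.

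Between 2950739 and 3934765 reads per library stood behind the values, which are reads divided by the authors' size factor for the library. Of 59 contractile genes of skeletal muscle searched for as markers, 55 were listed. Their summed value was 16048 to 34160 in offspring of starved fathers and 8790 to 34058 in offspring of fed fathers, so every library held RNA of differentiated muscle. ttn.2 was at 2065 to 4553 in offspring of starved fathers (median 3384) and at 372 to 4228 in offspring of fed fathers (median 2901). Fed replicates 4 and 5, at 372 and 705, stood apart from the other 10 libraries, so values without them are also given. In whole embryos, fewer muscle cells and less RNA per muscle cell cannot be told apart.

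The factor genes spanned a wide range of levels. A 3′ tag stands for a transcript end whatever the transcript's length, so no correction for length was made. Whether the ends of each gene were counted equally well was not tested, so the order of genes is one of counted tags. Over the 12 libraries mef2ca averaged 115 ± 29.9 and mef2d 99.2 ± 20.4 (SD, n = 12 for each mean here), above 94.0% and 92.9% of the listed genes. The commitment factor gene myod1 averaged 27.0 ± 4.50, pax7a 18.7 ± 6.07 and six1b 18.1 ± 3.37. myog averaged 6.62 ± 4.33 and myf5 1.17 ± 0.79. The gene ttn.2 averaged 2854 ± 1298. In this order each gene exceeded the next in at least 10 of 12 libraries, except mef2ca over mef2d (9 of 12) and pax7a over six1b (7 of 12), neighbours that lay within their spread.

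The factors also differed in how much they varied between libraries. The SD was 16.7% of the mean for myod1, 18.7% for six1b, 20.5% for mef2d, with mef2ca between mef2d and pax7a, 32.4% for pax7a and 65.3% for myog. It was 67.4% for myf5, which rests on 0 to 9 reads per library, where counting error is large relative to the value. No read of myf5 was seen in fed replicate 4, which allows a value of up to 0.904 there (3 reads, counting error only). The other 6 genes had at least 5 reads in every library, and mef2ca and mef2d at least 175 and 191.

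**Figure D1:**
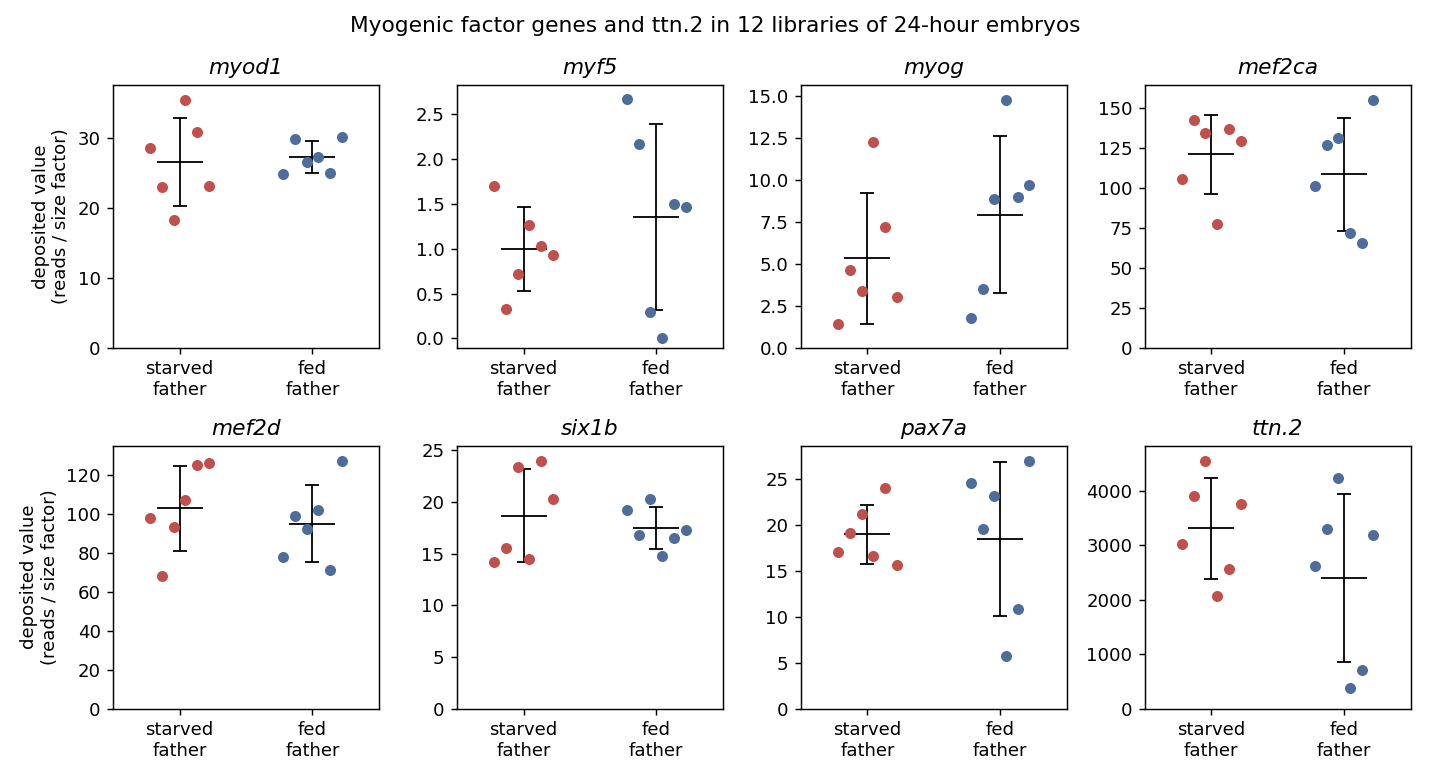
Values of 7 myogenic factor genes and of the titin gene ttn.2 (vertical axes, reads divided by the authors' size factor) in 6 libraries of starved fathers' offspring and 6 of fed fathers' offspring. Each point is a library, the horizontal mark the mean and the bar 1 SD; the groups overlap in every panel, and ttn.2, mef2ca and pax7a each have their 2 lowest values of all 12 libraries in the fed group.

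Whether a father's starvation left a mark on the muscle programme of the offspring was asked first of the myogenic regulatory factors. None of them passed the test between the groups. myod1 (ENSDARG00000030110, chromosome 25, bases 31421253 to 31423493, GRCz11) had a lowest, median and highest value of 18.3, 25.9 and 35.5 in offspring of starved fathers, against 24.9, 27.0 and 30.2 in offspring of fed fathers. Its fed libraries all fell inside the range of the starved ones. The means were 26.6 ± 6.25 in offspring of starved fathers and 27.3 ± 2.30 in offspring of fed fathers (SD, n = 6 each). The log2 difference, starved minus fed on log2(value + 1), was -0.07 ± 0.19 (SE; 95% interval -0.46 to 0.33; limma, adjusted p = 0.988 over all genes).

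myf5 (ENSDARG00000007277, chromosome 4, bases 21741228 to 21745107) encodes the other commitment factor and was close to the detection limit in these libraries. It was at 0.33, 0.98 and 1.70 (lowest, median, highest) in offspring of starved fathers and at 0, 1.49 and 2.67 in offspring of fed fathers. The groups overlapped almost fully, with a log2 difference of -0.13 ± 0.39 (SE; limma, adjusted p = 0.988). Without fed replicates 4 and 5 it was -0.34 (limma, adjusted p = 0.968).

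myog (ENSDARG00000009438, chromosome 11, bases 22592935 to 22605981), the gene of the differentiation factor, had the largest relative spread after myf5, on 5 to 49 reads per library. Its lowest, median and highest values were 1.42, 4.00 and 12.3 in offspring of starved fathers and 1.78, 8.91 and 14.8 in offspring of fed fathers. Only starved replicate 4 lay above the fed mean, while fed replicates 1 and 2, at 1.78 and 3.53, were as low as the starved libraries. The means were 5.32 ± 3.91 in offspring of starved fathers and 7.93 ± 4.67 in offspring of fed fathers (SD, n = 6 each). On the log2 scale myog differed by -0.50 ± 0.43 (SE; 95% interval -1.39 to 0.39; limma, adjusted p = 0.942). This difference was the largest of the 7 genes in size and was within the spread between libraries. Without fed replicates 4 and 5 it was -0.15 (limma, adjusted p = 0.988). With starved replicate 4, the second-highest for myog, left out as well, it was -0.405 (limma, adjusted p = 0.975).

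The Mef2 genes were at similar levels in both groups. mef2ca (ENSDARG00000029764, chromosome 10, bases 43544814 to 43655449) was at 77.7, 132 and 143 (lowest, median, highest) in offspring of starved fathers and at 65.5, 114 and 155 in offspring of fed fathers. Its low values were in 1 starved library, replicate 4 (77.7), and in 2 fed libraries, replicates 4 and 5 (71.7 and 65.5). The log2 difference was 0.19 ± 0.21 (SE; 95% interval -0.23 to 0.62; limma, adjusted p = 0.949). It turned to -0.10 without fed replicates 4 and 5, and was 0.02 with starved replicate 4 left out as well.

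mef2d (ENSDARG00000040237, chromosome 16, bases 29072874 to 29194517) encodes a second Mef2 protein of the muscle fibre. It was at 68.3, 103 and 127 in offspring of starved fathers and at 71.5, 95.9 and 128 in offspring of fed fathers. The ranges were nearly the same, and the log2 difference was 0.11 ± 0.18 (SE; limma, adjusted p = 0.961). Fed replicate 4, the library with the least ttn.2, was above the fed mean for mef2d, at 102. Fed replicate 5, with the second-lowest ttn.2, had the lowest mef2d of the fed libraries, at 71.5.

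Of the upstream factors, six1b (ENSDARG00000026473, chromosome 20, bases 20499869 to 20505918), a homeobox gene that is also active in the cranial placodes, was at 14.2, 17.9 and 24.0 in offspring of starved fathers and at 14.8, 17.1 and 20.3 in offspring of fed fathers. The fed libraries again lay inside the starved range. The log2 difference was 0.06 ± 0.21 (SE; limma, adjusted p = 0.988).

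pax7a (ENSDARG00000100398, chromosome 11, bases 41242644 to 41372948), a paired box gene of muscle precursors that also marks dorsal neural tube, brain and neural crest, was at 15.7, 18.1 and 24.0 in offspring of starved fathers and at 5.72, 21.3 and 27.0 in offspring of fed fathers. The fed values were split: replicates 4 and 5 stood at 5.72 and 10.9, below every starved library, and the other 4 at 19.6 or more. The log2 difference was 0.18 ± 0.29 (SE; 95% interval -0.43 to 0.79; limma, adjusted p = 0.962), and without those 2 libraries it was -0.31, again not past the threshold (adjusted p = 0.943).

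**Figure D2:**
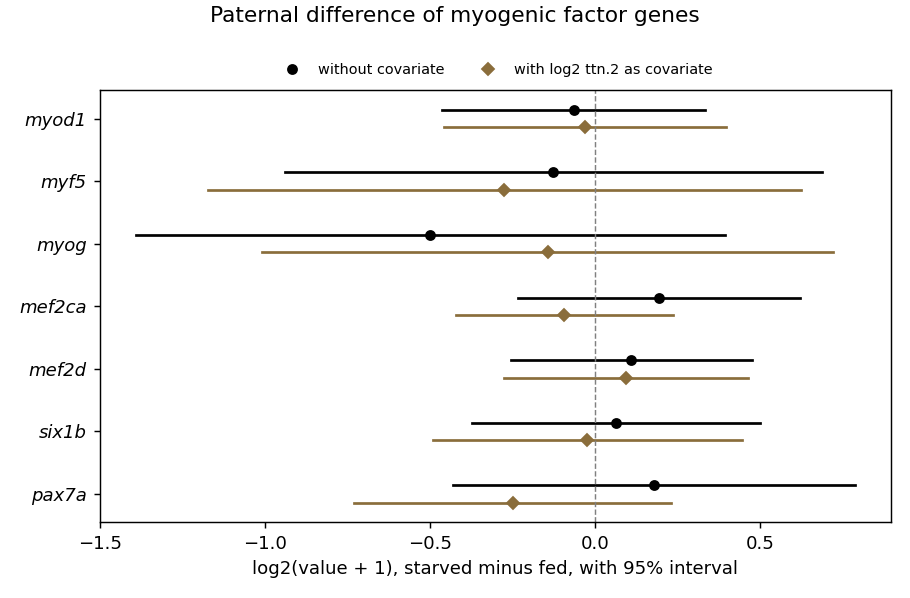
Log2 difference of 7 myogenic factor genes, offspring of starved fathers minus offspring of fed fathers on log2(value + 1) (horizontal axis), with 95% intervals from limma, without a covariate (circles) and with the log2 value of ttn.2 as a covariate (diamonds). Every interval includes 0; that of myog is the widest on the lower side without the covariate, from -1.39 to 0.39.

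In all, 0 of the 7 genes passed limma's test at an adjusted p below 0.05, where 0% of the 13680 genes did, and 0 of the 7 had an unadjusted p below 0.05, where 5.54% of all genes did, 2.11% with a higher and 3.44% with a lower mean. edgeR, limma-voom and DESeq2 on the reads likewise called 0 genes, with 649, 761 and 754 of all genes at an unadjusted p below 0.05. All of these fits ignored a possible pairing of same-numbered libraries. Blocking by that number in limma gave 39 called genes, 8 with a higher and 31 with a lower mean in offspring of starved fathers. The 39 held 0 members, and the lowest adjusted p of a member was 0.679 (myog). The absence of calls over all genes thus depended on leaving out this block. Means were higher in offspring of starved fathers for 4 members and lower for 3, with a median log2 difference of 0.06 against -0.01 over all listed genes. For 0 of the 7 were the groups free of overlap, against 0.234% of all genes (0.11% with a higher and 0.124% with a lower mean in offspring of starved fathers). In the authors' deposited table, which calls 0.768% of all genes at an FDR below 0.05, none of the 7 was called. The log2 fold change in the authors' deposited table ran from -0.59 for myog to 0.15 for mef2ca, with FDR 0.833 for myog, the lowest of the 7. ttn.2, which the authors' deposited table lists at 0.71 (FDR 0.000925), had a log2 difference of 0.85 ± 0.42 in the test used here (SE; limma, adjusted p = 0.885). Without fed replicates 4 and 5 it was -0.04 ± 0.19 (SE; limma, adjusted p = 0.996), but starved replicates 4 and 5 stayed in that fit. In description codes 1118, 1203 and 1210, which hold none of these libraries, ttn.2 was higher in offspring of starved fathers by 0.21, 0.25 and 0.11. The authors used edgeR and the test here was limma without a block. Why the 2 differ was not tested.

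Libraries of the groups share 5 description codes, of which code 1242 holds 2 libraries per group, so differences could also be taken within a code. mef2ca was higher in offspring of starved fathers in 5 of 5 codes, by 0.03 to 0.40 on the log2 scale, and ttn.2 in 5 of 5, by 0.11 to 2.47. For mef2ca the difference in code 1242 came from replicate 5, at 137 starved and 65.5 fed. In replicate 6 of that code the starved library was lower, at 130 against 155. How many of all genes were higher in 5 of 5 codes was not counted. mef2d was higher in 4 of 5 codes. myog was lower in 4 of 5, with differences from -1.17 (code 1210) to 0.31 (code 1203). For myod1, myf5, six1b and pax7a 2 codes were higher and 3 lower. The labels do not say what a code stands for.

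Over the 12 libraries of both groups, mef2ca moved with the contractile gene ttn.2. The libraries with least ttn.2, fed replicate 4 (372), fed replicate 5 (705) and starved replicate 4 (2065), had 71.7, 65.5 and 77.7 of mef2ca, and the other 9 had 102 or more. Fed replicate 4 and starved replicate 4 share description code 1219. Pearson's r of the log2 values was 0.84 (n = 12, permutation p = 0.0006, adjusted p = 0.0352 over 13679 genes), and Spearman's rho was 0.68 (permutation p = 0.0185, adjusted p = 0.165). A doubling of ttn.2 went with a log2 difference of 0.32 ± 0.07 in mef2ca (SE of the slope). This was the single member called, while r was called for 3.1% of all genes, 1.93% positive and 1.17% negative. Without fed replicates 4 and 5, the 2 libraries farthest from the median of ttn.2, r was 0.69 (n = 10, permutation p = 0.025, adjusted p = 0.326), and 0% of all genes were called. Within the groups r was 0.75 in offspring of starved fathers (n = 6, exact permutation p = 0.0722, adjusted p = 0.562) and 0.90 in offspring of fed fathers (n = 6, exact permutation p = 0.025, adjusted p = 0.289). Of 13679 genes, 1254 had an unadjusted exact permutation p below 0.05 in offspring of starved fathers and 2045 in offspring of fed fathers. With group means removed r was 0.84 and no longer passed (n = 12, permutation, adjusted p = 0.0761). With the replicate number as a block r was 0.65 (n = 12, permutation within the block, p = 0.281, adjusted p = 0.839), and 0 of 13679 genes were called. That block allows 64 arrangements, so its p cannot go below 0.03125. The call was also lost without any 1 of 9 of the 12 libraries, where the adjusted p lay between 0.0508 and 0.0987 and r between 0.78 and 0.89. Both values of a library share its size factor, and the part of that in the correlation was not tested beyond the other scaling given with the settings.

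**Figure D3:**
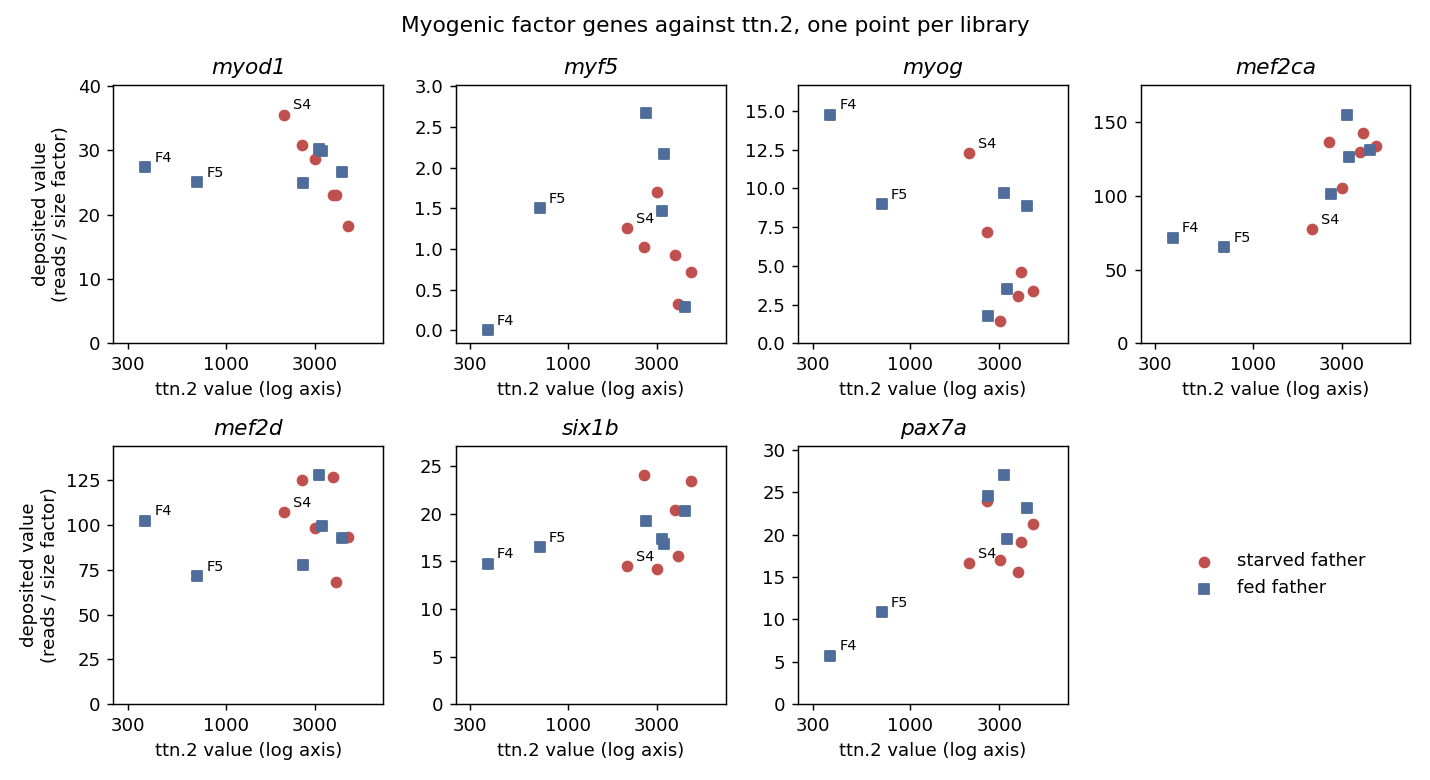
Values of 7 myogenic factor genes (vertical axes, reads divided by the authors' size factor) against the value of ttn.2 (horizontal axes, logarithmic), with 1 point per library; circles are offspring of starved fathers and squares offspring of fed fathers. F4 and F5 are fed replicates 4 and 5, at 372 and 705 of ttn.2, and S4 is starved replicate 4, at 2065. These 3 have the lowest mef2ca, and F4 and S4 have the highest myog, at 14.8 and 12.3. F4 and S4 share description code 1219.

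pax7a had the highest r of the members, but it rested on 2 libraries. Over 12 libraries r was 0.87 (permutation p = 0.00371, adjusted p = 0.0753) and rho was 0.40 (permutation p = 0.20). Without fed replicates 4 and 5 r was 0.04 (n = 10, permutation p = 0.912), and within offspring of starved fathers it was 0.09 (n = 6, exact permutation p = 0.853). In offspring of fed fathers, which include those libraries, it was 0.96 (n = 6, exact permutation p = 0.0208, adjusted p = 0.283).

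myog leaned the other way. Its highest values, 14.8 and 12.3, were in fed replicate 4 and starved replicate 4, which had the lowest and the third-lowest ttn.2. These 2 libraries share description code 1219, so they may not be independent. Fed replicate 5, with the second-lowest ttn.2, had an intermediate 8.98. r was -0.55 over 12 libraries (permutation p = 0.0583, adjusted p = 0.276) and rho was -0.47 (permutation p = 0.128). The r was -0.20 without fed replicates 4 and 5 (n = 10, permutation p = 0.57), -0.63 within offspring of starved fathers and -0.53 within offspring of fed fathers (n = 6 each, exact permutation p = 0.171 and p = 0.276), so no relation passed the test. With the replicate number as a block r was -0.26 (n = 12, permutation within the block, p = 0.0938, adjusted p = 0.705).

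For myod1 the picture differed between sets of libraries. In offspring of starved fathers the order of myod1 was the reverse of that of ttn.2 on the authors' scale, with 35.5 in replicate 4, 30.9 in replicate 5, 28.7 in replicate 1, 23.1 in replicates 6 and 2, and 18.3 in replicate 3. There r was -0.98 (n = 6, exact permutation p = 0.00139, adjusted p = 0.439) and rho was -1 (exact permutation p = 0.00278). On reads scaled to the total of the library (RPM) the order was not fully reversed, since myod1 was higher in starved replicate 1 (29.6) than in starved replicate 5 (26.7), which had less ttn.2. Starved replicate 6 also had more of both genes than starved replicate 2 on that scale. There myod1 was at 25.2 against 23.7, and ttn.2 at 4080 against 4004. A p as small as that of r was reached by 39 of 13679 genes (0.285%) in the same 6 libraries, 12 of them with a negative r. In offspring of fed fathers, where myod1 stayed between 24.9 and 30.2, r was 0.31 (n = 6, exact permutation p = 0.561). The slope of myod1 on ttn.2, starved minus fed, was -0.79 ± 0.33 (SE; limma, adjusted p = 0.532), so the groups were not shown to differ. Over 12 libraries r was -0.21 (permutation p = 0.493) and rho -0.52 (permutation p = 0.0833), and r was -0.78 without fed replicates 4 and 5 (n = 10, permutation p = 0.00704, adjusted p = 0.227), where 12.5% of all genes had an unadjusted p below 0.05, 6.44% with a positive and 6.04% with a negative r. With the replicate number as a block the sign turned, and r was 0.45 (n = 12, permutation within the block, p = 0.469, adjusted p = 0.879).

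The remaining members showed no relation that passed. six1b had r = 0.44 and rho = 0.45 over 12 libraries (permutation p = 0.158 and p = 0.147), with 14.8 and 16.5 in fed replicates 4 and 5, and r = 0.35 without them (n = 10, permutation p = 0.318). mef2d had r = 0.14 and rho = -0.17 (permutation p = 0.69 and p = 0.604). For myf5 r was 0.24 over 12 libraries (permutation p = 0.469) and -0.59 without fed replicates 4 and 5 (n = 10, permutation p = 0.0721), a turn of sign in a gene of few reads.

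**Figure D4:**
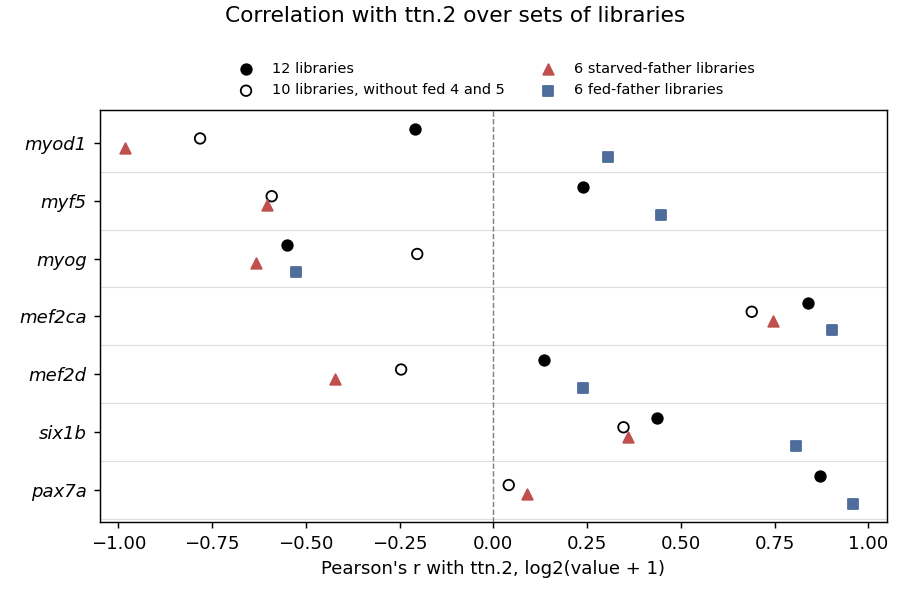
Pearson's r of 7 myogenic factor genes with ttn.2 on log2(value + 1) (horizontal axis), over all 12 libraries (filled circles), 10 libraries without fed replicates 4 and 5 (open circles), the 6 libraries of starved fathers (triangles) and the 6 of fed fathers (squares). mef2ca is positive in all 4 sets, from 0.69 to 0.90, and myog negative in all 4, while the r of pax7a is near 0 wherever fed replicates 4 and 5 are absent.

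With the log2 value of ttn.2 as a covariate, the paternal difference of mef2ca was -0.09 ± 0.16 in place of 0.19, and that of pax7a -0.25 ± 0.23 in place of 0.18. That of myog was -0.14 ± 0.42 in place of -0.50 (SE; limma, adjusted p = 0.958, 0.909 and 0.975). None of the 7 passed, nor did any other gene (0%). Slopes on ttn.2 differed between the groups for 0 members and for 0.00731% of all genes, which is the fast troponin gene tnnt3b alone (adjusted p = 0.0319), named after its value was seen.

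Of 79 other genes of the myogenic pathway, 67 were listed. None passed the test between groups. Of the 67, 6 had an unadjusted p below 0.05 (limma), against 758 of 13680 over all genes (5.54%). A higher mean in offspring of starved fathers was seen for 32 and a lower one for 35. The median log2 difference was -0.006, against -0.014 over all genes. Myogenic regulatory factor gene myf6 was not among the genes of the table. The smallest p belonged to klhl31, a kelch family gene expressed in muscle, at 198 ± 35.3 in offspring of starved fathers and 121 ± 45.0 in offspring of fed fathers (SD, n = 6 each; log2 difference 0.77; limma, adjusted p = 0.775). Next came tcf3a, whose E protein pairs with the myogenic factors, with a mean of 59.9 in offspring of starved fathers and 43.8 in offspring of fed fathers, and hes6, at 71.0 ± 21.5 in offspring of starved fathers and 50.4 ± 18.6 in offspring of fed fathers (SD, n = 6 each; limma, adjusted p = 0.868 and 0.885). In fed replicates 4 and 5 hes6 was at 30.4 and 33.3, against 46.5 to 106 in the other libraries. Group differences of the pathway genes without those 2 libraries are not given here. The cell cycle inhibitor gene cdkn1ca was at 37.7 ± 5.77 in offspring of starved fathers and 48.6 ± 4.99 in offspring of fed fathers. The somite homeobox gene meox1 was at 12.3 ± 2.75 in offspring of starved fathers and 18.0 ± 4.10 in offspring of fed fathers. Values of rbfox1l, a splicing regulator gene of muscle, were 77.3 ± 27.2 in offspring of starved fathers and 53.2 ± 15.8 in offspring of fed fathers. For id2a, whose product binds E proteins away from the myogenic factors, they were 19.6 ± 8.59 in offspring of starved fathers and 27.9 ± 7.85 in offspring of fed fathers. jam3b, a cell adhesion gene of myoblast fusion, was at 71.0 ± 24.7 in offspring of starved fathers and 91.1 ± 15.0 in offspring of fed fathers (SD, n = 6 each; adjusted p = 0.885 with limma for these 5).

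In the relation to ttn.2, 4 of these 67 genes were called positive and 3 negative at an adjusted permutation p below 0.05, against 1.93% and 1.17% of all genes. All 7 calls were lost without fed replicates 4 and 5, where 0 of 13679 genes were called and 1707 had an unadjusted p below 0.05. Chosen for having passed, the positive ones were stac3 (r = 0.92, adjusted p = 0.00774), which couples excitation to contraction, pax7b (r = 0.89, adjusted p = 0.0298), hes6 (r = 0.88, adjusted p = 0.00651) and smyd1a (r = 0.81, adjusted p = 0.0231), a methyltransferase gene (n = 12 for each). Without fed replicates 4 and 5 their r was 0.79, 0.95, 0.89 and 0.64. The paralog smyd1b was not called, with r = -0.06 over 12 libraries (permutation, adjusted p = 0.938) and 0.18 without fed replicates 4 and 5. In those 10 libraries pax7b, the paralog of pax7a, was not called at r = 0.95, and the r of pax7a was 0.04; the difference between the paralogs was not tested. pax7b was at 6.36 and 9.64 in fed replicates 5 and 4, and at 14.2 to 28.9 in the others. The paralogs are similar genes, and how the authors' counting split reads between them was not tested.

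The negative ones were id1 (r = -0.84, adjusted p = 0.018) and id3 (r = -0.75, adjusted p = 0.0389), inhibitors of myogenic factors, and msgn1 (r = -0.82, adjusted p = 0.0305), a factor gene of the presomitic mesoderm (n = 12 for each). Without fed replicates 4 and 5 their r was -0.72, -0.63 and -0.72. id1 was at 289 and 270 in fed replicates 4 and 5, against 81.2 to 211 in the other libraries. msgn1 was at 27.4 in fed replicate 4, 15.7 in starved replicate 4 and 13.1 in fed replicate 5, against 0.33 to 7.20 elsewhere. The 3 libraries with least ttn.2 thus held the most msgn1, and 2 of them the most myog. Those 2, fed replicate 4 and starved replicate 4, share description code 1219.

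Other tissues that use these factors were read through marker lists. Contractile genes of skeletal muscle had a median log2 difference of 0.39 between groups, 48 of 55 higher and 0 called, beside 6567 of 13680 higher over all genes. The contractile genes had their lowest sums in fed replicates 4 and 5 (8790 and 10722), and their median difference without these 2 was not taken. Their median r with ttn.2 was 0.77, with 25 of 54 called positive, against 1.93% of all genes; without fed replicates 4 and 5 it was 0.63, with 0 called. Among 11 listed heart genes, a tissue in which mef2ca is also active, 0 were called in either analysis and the median r was -0.30, or -0.05 without fed replicates 4 and 5. Their summed value was 88.2 to 212 in offspring of starved fathers and 134 to 271 in offspring of fed fathers, with the highest in fed replicate 5, where mef2ca was lowest. The 11 genes of neural crest and pigment and the 11 of dorsal neural tube and brain, tissues of pax7a, had a median r of -0.14 and -0.09, or -0.08 and -0.31 without those libraries. The 10 placode genes, for six1b, had a median r of -0.18, or -0.36 without them. Of 17 genes of tailbud and presomitic mesoderm 8 were listed, their sum being 35.9 to 88.7 in offspring of starved fathers and 50.5 to 95.2 in offspring of fed fathers; 1 of the 8, msgn1, was called, against 1.17% of all genes, and not without fed replicates 4 and 5. The part of these tissues in the values of the 7 genes was not tested.

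Genes whose pattern over the 12 libraries was most like that of a member were sought among 8098 genes with a mean of at least 5. They were picked as the 3 highest values of r, which are given as a description. For mef2ca they were prr33 (r = 0.97), the intermediate filament gene nes (0.97) and pou3f1 (0.95), with 0.97, 0.93 and 0.89 in the 10 libraries without fed replicates 4 and 5. For pax7a they were dacha (0.91), otpa (0.91) and spegb (0.89), with 0.68, 0.62 and 0.41 in those 10. For myod1 they were the ribosomal protein gene rpl8 (0.94), wdr43 (0.91) and ppp5c (0.89), and none of these had an r with ttn.2 beyond -0.29. For myog they were p4ha1b (0.90), pskh1 (0.86) and fam174b (0.85), for mef2d gpkow (0.91), mybbp1a (0.87) and rnf19a (0.86), and for six1b lmtk2 (0.85), col16a1 (0.84) and exd2 (0.84). For the sparsely counted myf5 they were ptgesl (0.88), pigf (0.86) and pla2g6 (0.84). No member was among the closest genes of another. ttn.2 itself ranked 13th by r for pax7a and 90th for mef2ca.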

How the data were processed

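Messenger RNA of 24-hour embryos was made into libraries with the QuantSeq 3′ kit and read on a NextSeq instrument, per the labels' protocols. Per the submitters' processing notes, STAR and edgeR were used with build GRCz11 (danRer11); versions, the counting program, the strand setting and the gene filter were not given in the sources used here. Each deposited value is a signal: reads per gene divided by a size factor of the library, found from the values. With a tolerance of 0.03, 100% of them were whole reads in each library. Per the file headers, the table also holds the authors' log2 fold change (starved over fed by its sign) and their FDR, an adjusted p-value.

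Groups were taken from titles and columns from descriptions. limma 3.58.1 in R 4.3.3 was run on log2(value + 1) with a variance trend, two-sided, over all 13680 genes; p-values were adjusted after Benjamini and Hochberg and called below 0.05; such log2 differences understate changes of low genes. Correlations with ttn.2 used 100000 two-sided permutations (all 720 pairings for 6 libraries), adjusted over all genes. The tests were also run on simulated data with independent noise between libraries, and no result here rests on those runs. Alternatives were edgeR 4.0.16 and DESeq2 1.42.0 on recovered reads, other pseudocounts, a minimum mean, blocks, and libraries left out. No duplicates were found within a group (chi-square per degree of freedom 6.33 or more). The genes, lists and rules were chosen with earlier results of these data known: all members, the 8 pathway genes of smallest p and the 3 most similar genes per member, clone-style names left out. Names are those of the table, in which 105 repeat. No sequence is shown.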

Additional observations from a re-analysis of the deposited data

How the results depend on the processing

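None of the 7 genes passed the test between paternal groups under any alternative run, and adjusted p stayed between 0.679 (myog, replicate block) and 1.0. Over all genes limma called 0 in that test, 39 with the replicate number as a block and 1 (ctss2.1) with the description code as a block. Directions near 0 were not stable. Under edgeR with library totals myod1 was at 0.033, and under limma-voom myf5 at 0.054. Without fed replicates 4 and 5, mef2ca was at -0.101, six1b at -0.011 and pax7a at -0.306. In that setting myog was at -0.148 in place of -0.50 and myf5 at -0.341 in place of -0.13. Without starved replicate 4 as well, mef2ca was at 0.02, six1b at 0.052, pax7a at -0.27, myog at -0.405 and myf5 at -0.384. With each library left out in turn, the log2 difference ran from -0.152 to 0.032 for myod1, -0.345 to 0.031 for myf5, -0.79 to -0.27 for myog, 0.06 to 0.32 for mef2ca, 0.03 to 0.22 for mef2d, -0.012 to 0.131 for six1b and -0.10 to 0.31 for pax7a. The minimum mean of 5 left out myf5.

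With ttn.2 as a covariate, leaving out a library gave -0.142 to 0.041 for myod1, -0.63 to -0.10 for myf5, -0.47 to 0.19 for myog, -0.165 to 0.013 for mef2ca, 0.02 to 0.22 for mef2d, -0.12 to 0.044 for six1b and -0.36 to -0.17 for pax7a, with 0 to 1 genes called. With the replicate block and ttn.2 together, 1 gene was called (hbbe1.1), and mef2d was at -0.052.

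In the relation to ttn.2, 424 genes and 1 member, mef2ca, were called. The count of genes was 258 with Spearman's rho, 208 with replicates 5 and 6 averaged, 0 without fed replicates 4 and 5, 0 with the replicate block, and 156 to 296 with a library left out. No member was called (0) with rho, without fed replicates 4 and 5, with replicates 5 and 6 averaged, with group means removed or with the replicate block, and 0 to 1 with a library left out. For mef2ca these gave rho of 0.68 and r of 0.69, 0.83, 0.84 and 0.65, the last with p = 0.281 (permutation within the replicate block, adjusted p = 0.839). On TMM-scaled reads its adjusted p was 0.033. Signs turned for myf5 (rho -0.24; r -0.59 without fed replicates 4 and 5), mef2d (rho -0.17; r -0.25 without those libraries and -0.25 with replicates 5 and 6 averaged) and myod1 (0.45 with the replicate block). With a library left out r was -0.31 to -0.04 for myod1, -0.39 to 0.38 for myf5, -0.63 to -0.35 for myog, 0.78 to 0.89 for mef2ca, -0.12 to 0.30 for mef2d, 0.31 to 0.52 for six1b and 0.66 to 0.91 for pax7a. A limma slope on ttn.2, added after seeing the data, called 973 genes and 2 members, mef2ca and pax7a (slope 0.45, adjusted p = 0.00579). Causes of these changes were not tested, and neither was the part of the lower power that fewer libraries leave.

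Deviations of same-numbered libraries correlated with r from 0.0992 to 0.445. The check of pairing asked for at least 0.1 in every pair, and 1 of 6 pairs fell under it. Every starved library nevertheless correlated best with the fed library of its own number. The libraries may therefore be paired by number, which the tests without a block ignore. With the replicate block, the permutation of ttn.2 has 64 arrangements and cannot go below p = 0.03125. Depth limits myf5, at 0 to 9 reads per library, and myog, at 5 to 49.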
